A study of Arabidopsis thaliana with 8 samples.

Results

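The photoreceptor genes described here are the 5 phytochrome genes *PHYA* to *PHYE* and the cryptochrome genes *CRY1* and *CRY2* of *Arabidopsis thaliana*, 7 of the 27444 protein-coding nuclear genes. For each gene, every PIF3-binding peak was taken whose summit lay between 10 kb upstream of the transcription start site (TSS) and the end of the gene. This gave 14 of the 6828 peaks in the 4 peak lists, and 6 of the 7 genes had at least 1 of them. The lists come from chromatin immunoprecipitation with sequencing (ChIP-seq) of whole 2-d-old seedlings. Germination was induced with 3 h of white light at 21 °C, a 15-min far-red pulse followed, and the seedlings were then kept in darkness. P3M seedlings carry *35S:PIF3-5xMyc* in the *pif3-3* null mutant, so that Myc-tagged PIF3 is made under the constitutive 35S promoter and no native PIF3 is present. WT seedlings carry no tagged protein and went through the same anti-Myc precipitation. Each genotype had 4 biological replicates, each a pool of 4 precipitations, and each list holds the peaks of 1 P3M library over the WT library of the same number.

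Phytochromes sense red and far-red light, and cryptochromes sense blue light. In darkness PIF3, a bHLH transcription factor that binds the G-box (CACGTG), accumulates in the nucleus. On exposure to light, activated phytochromes, phytochrome B foremost among them, bind PIF3 and trigger its degradation. The phytochromes therefore act upstream of the factor mapped here.

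A site was called reproducible where summits of 2 or more replicates lay within less than 100 bp of each other. Such sites were found for 4 of the 7 genes: *PHYA*, *PHYB*, *PHYE* and *CRY1*. Over all protein-coding genes, 10.7% had such a site in the same window. A peak of any replicate was present for 6 of the 7, against 41.7% of all genes. A site in the 10 kb upstream was present for 3 of the 7 (*PHYB*, *PHYE* and *CRY1*), against 9.95%, and a site with no other annotated gene between it and the TSS for 3 of the 7 (*PHYA*, *PHYB* and *CRY1*), against 3.77%. The 7 genes were long, with a median of 4210 bp against 2078 bp for all protein-coding genes, and their windows spanned 13185 to 15660 bp. Since the genes were chosen with results of these data known, no test was made of these shares.

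The peaks were spread unevenly over the replicates. Replicate 1 gave no peak at any of the 7 genes (7.47% of all genes had one), replicate 2 gave 4 peaks at 4 genes (25.8%), replicate 3 gave 2 peaks at 2 genes (5.08%) and replicate 4 gave 8 peaks at 6 genes (27.0%). The lists themselves differed in size, with 696, 2517, 526 and 3089 peaks in replicates 1 to 4 and medians of 87, 109, 159.5 and 189 tags per peak. The libraries of replicates 1 and 2 were sequenced in 2 runs each, and the part of sequencing in the differences between lists was not tested. Of the 14 peaks, 8 fell in the 4 sites and the other 6 were seen in 1 replicate only. Each of the 4 sites had a summit in replicate 4 and in 1 other replicate, so that without replicate 4 none of the 7 genes had a site, without replicate 3 only *PHYE* and *CRY1* did, and without replicate 2 only *PHYA* and *PHYB* did. With peaks at a p of 1e-10 or lower, *PHYB* alone kept its site.

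**Figure D1:**
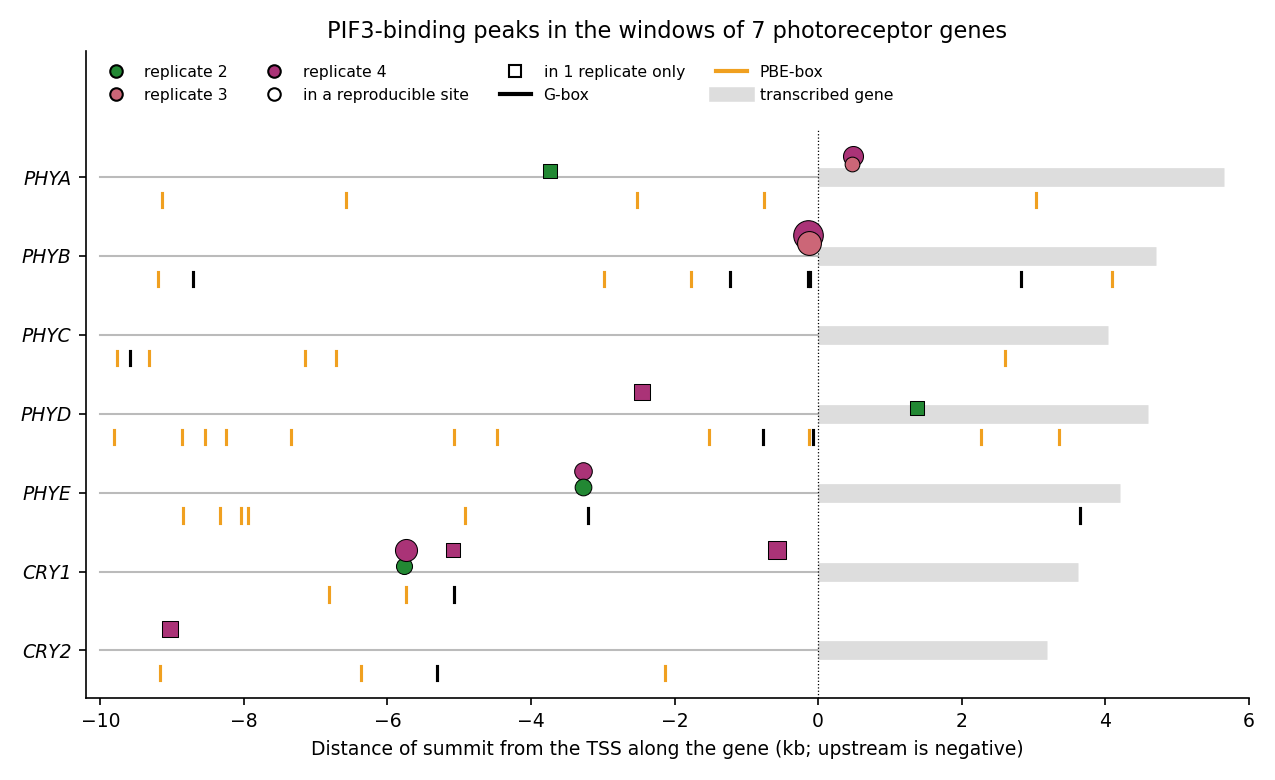
PIF3-binding peaks by distance of the summit from the TSS in kb (upstream negative) for the 7 photoreceptor genes. Circles are peaks in a reproducible site and squares peaks of 1 replicate, with area in proportion to fold enrichment and colour by replicate; black ticks are G-boxes, orange ticks PBE-boxes and grey bars the transcribed genes. The largest circles, in replicates 3 and 4, lie just before the *PHYB* TSS on a pair of G-boxes, and *PHYC* has no peak.

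*PHYB* (AT2G18790), which encodes the main red-light receptor of light-grown seedlings, lies on the plus strand of chromosome 2 from 8139756 to 8144461. Its site, at chr2:8139522-8139722 in intergenic DNA, has its mean summit 134 bp upstream of the TSS. No other gene lies between them, and the nearest gene on the other side, AT2G18780 on the minus strand, starts 1480 bp away, so that the site lies between the starts of divergent genes. The 201 bases of the site are shown along the plus strand with the G-boxes in capitals, because this is the strongest of the photoreceptor sites.
PHYB site: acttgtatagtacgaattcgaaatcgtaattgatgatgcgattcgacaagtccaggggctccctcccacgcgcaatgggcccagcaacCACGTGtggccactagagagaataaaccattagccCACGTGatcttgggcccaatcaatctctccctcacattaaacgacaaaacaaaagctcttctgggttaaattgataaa
The G-boxes are centred 144 and 109 bp upstream of the TSS, 35 bp apart, and the window holds no other E-box (CANNTG) and no PBE-box (CACATG on either strand). At least 2 G-boxes were present in 165 of the 1064 reproducible sites (15.5%), in 0.689% of the stretches of equal length placed alike before all protein-coding genes, and in 0.171% of adjoining 201-bp stretches of the nuclear genome.

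In replicate 4 the *PHYB* peak held 793 tags with a fold enrichment of 14.43 and a MACS score, which is -10 times log10 of the p-value, of 1970.27. It ranked 16 of 3089 by score, had a false discovery rate of 0%, and its summit lay 146 bp upstream of the TSS. In replicate 3 the peak held 327 tags with a fold enrichment of 9.35 and a score of 530.49, ranked 12 of 526 by score, and its summit lay 122 bp upstream. Its false discovery rate in that list was 100%, a value shared by 525 of the 526 peaks of replicate 3. The summits were thus 24 bp apart, near the distal and the proximal G-box respectively, and the mean fold enrichment was 11.89 ± 3.59 (SD, n = 2 replicates). The lists of replicates 1 and 2 held no peak there: their nearest summits lay 31789 and 18156 bp from the mean summit. The lowest fold enrichment listed was 2.01 in replicate 1 and 1.83 in replicate 2, so values below the peak threshold in those replicates are unknown here.

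**Figure D2:**
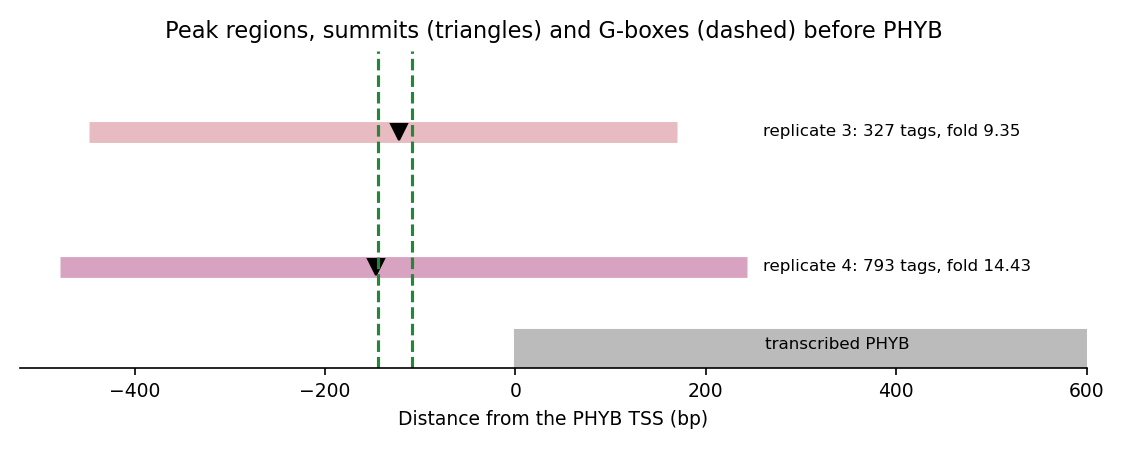
Extent of the *PHYB* peaks of replicates 3 and 4 (bars), their summits (triangles) and the G-boxes (dashed lines) by distance from the TSS in bp, with the start of the transcribed gene in grey. The summits lie 122 and 146 bp upstream, and the G-boxes 109 and 144 bp upstream.

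Few sites as strong as *PHYB* were missing from replicates 1 and 2. Of the 434 sites with summits in both replicates 3 and 4, 133 (30.6%) were in neither of the other lists, and among those 133 the *PHYB* site ranked 1 by score in each replicate. The next scores were 316.12 in replicate 3 and 1050.01 in replicate 4, and the medians 63.75 and 202.26. It ranked 1 by fold enrichment in replicate 3, where the next value was 8.33, and 3 in replicate 4. Another 16 sites had at least the fold enrichment of *PHYB* in both replicates, and all 16 were present in all 4 lists; by score this held for 10 of 10. The share of sites in neither replicate 1 nor 2 was 61.7% of the 107 sites with a replicate 4 score of 50 to 200, 36.9% of 157 from 200 to 500, 5.79% of 121 from 500 to 1000, and 4.08%, or 2 sites with *PHYB* among them, of the 49 sites from 1000 upwards.

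**Figure D3:**
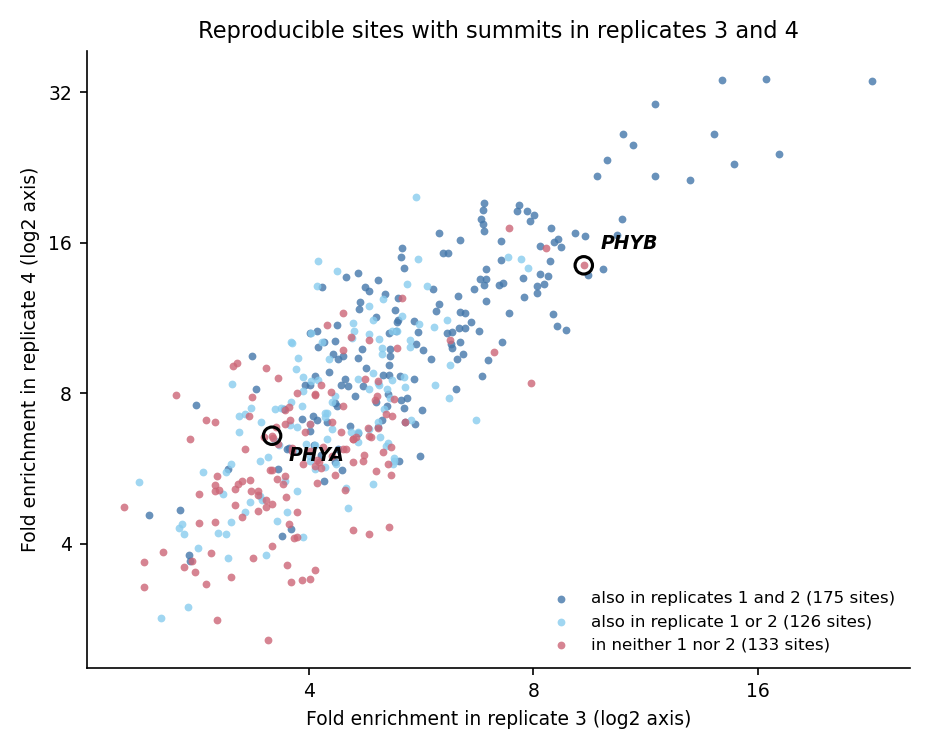
Fold enrichment in replicate 3 against replicate 4 (log2 axes) for the 434 sites with a summit in each, coloured by whether replicates 1 and 2 also held them. *PHYB*, at 9.35 and 14.43, is a site of replicates 3 and 4 only among points that are nearly all in 4 replicates, and *PHYA* lies at 3.57 and 6.58.

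Among the sites of replicates 3 and 4 only, the 5 most like *PHYB* by the Euclidean distance of their 2 log2 fold enrichments had these nearest genes. *AHL20* (AT4G14465), encoding an AT-hook nuclear protein, had a site 3405 bp downstream of its TSS with fold enrichments of 8.33 and 15.63 in replicates 3 and 4, a distance of 0.203. *HAT22* (AT4G37790), a homeodomain gene, had one 2688 bp downstream with 7.42 and 17.11 (0.414). The others were *TO2* (AT1G31020), for a thioredoxin, at 0.704, *GH3.17* (AT1G28130), of an auxin-conjugating enzyme family, at 0.776, and *ACS8* (AT4G37770), of the enzyme family that makes the ethylene precursor, at 0.815. All of these distances rest on 2 values a site. The *AHL20* site held 1 G-box and 1 PBE-box, the *HAT22* site 1 G-box, the *TO2* site neither motif, and the *GH3.17* and *ACS8* sites PBE-boxes only. None of the 5 held 2 G-boxes as *PHYB* did, where only 15.5% of the 1064 reproducible sites held at least 2.

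The study designed an in vitro binding probe, PHYBwt, on this promoter. The paper reports that recombinant PIF3 bound the *PHYB* probe, and that a competitor mutated at the motif did not compete like the unmutated one. The 26 bases of PHYBwt matched the nuclear genome at 1 place, chr2:8139635-8139660 on the plus strand, which is the G-box 109 bp upstream. The probe is shown beside some of the other G-boxes of the phytochrome and *CRY1* windows, each along its gene's own strand with the G-box in capitals. The *PHYD* one 762 bp upstream lies in a coding exon of the next gene upstream, AT4G16260.
PHYB, 144 bp upstream: gcccagcaacCACGTGtggccactag
PHYB, 109 bp upstream (PHYBwt): accattagccCACGTGatcttgggcc
PHYD, 73 bp upstream: atccacaaccCACGTGatctcggtcc
PHYD, 762 bp upstream: gttgacaatcCACGTGacatatctct
PHYE, 3203 bp upstream: aaaggagaagCACGTGtcaagttaca
CRY1, 5076 bp upstream: tagtatggggCACGTGccccacctag
*PHYD* (AT4G16250, minus strand of chromosome 4, 9195247 to 9199840) encodes the phytochrome most alike to phytochrome B. Its G-box 73 bp upstream shared 19 of 26 bases with the proximal *PHYB* G-box and 13 of 26 with the distal one, counting the motif itself. It lay 427 bp before the *PHYD* start codon, and the proximal *PHYB* G-box 432 bp before that of *PHYB*. A local alignment of the 300 bp before each TSS matched 40 of 51 paired bases across these G-boxes.

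No peak of any replicate was listed at the *PHYD* G-boxes. The nearest summit to the G-box 73 bp upstream was 1445 bp away and the nearest reproducible site 229903 bp away. Only 131 bp separate *PHYD* from AT4G16260, a gene on the same strand, and these bases are shown along the minus strand with the G-box and a PBE-box in capitals.
PHYD upstream region, chr4:9199841-9199971: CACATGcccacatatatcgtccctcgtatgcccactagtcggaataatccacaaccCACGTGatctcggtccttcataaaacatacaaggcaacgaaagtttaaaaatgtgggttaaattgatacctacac
In the 131 bp before their TSS, 4.42% of protein-coding genes had a G-box and 5.98% a PBE-box. The 36-base windows of the 201 bp around the *PHYD* G-box were all found at 1 place in the genome (166 of 166). The same held for those of the *PHYB* site (166 of 166). Why no peak was listed at the *PHYD* G-box was not tested. The *PHYD* peaks that were listed lay elsewhere and in 1 replicate each. A replicate 2 peak of 86 tags and a fold enrichment of 2.83 had its summit in a coding exon 1373 bp downstream of the TSS. A replicate 4 peak of 180 tags and a fold enrichment of 4.15 lay 2457 bp upstream, in the 3′ UTR of *NRPB9B* (AT4G16265), which encodes an RNA polymerase subunit, and beyond AT4G16260.

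*PHYA* (AT1G09570, minus strand of chromosome 1, 3095160 to 3100819), which encodes the light-labile far-red receptor abundant in dark-grown seedlings, had its site inside the gene. The mean summit was 478 bp downstream of the TSS in the 5′ UTR, at chr1:3100241-3100441. This site held no E-box of any kind within its 201 bp, as did 156 of the 1064 sites (14.7%) and 47.3% of adjoining stretches of the genome. In replicate 4 the peak held 1476 tags over 2211 bp, with a fold enrichment of 6.58 and a score of 64.65. Its false discovery rate was 100%, as for 2164 of the 3089 peaks of that list. The peak ranked 2 of 3089 by tags, 4 by length and only 2407 by score. In replicate 3 it held 409 tags over 925 bp, with a fold enrichment of 3.57, a score of 52.22 and a false discovery rate of 100%, and ranked 23 of 526 by tags and 500 by score. The summits were 14 bp apart and the mean fold enrichment was 5.08 ± 2.13 (SD, n = 2 replicates).

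The *PHYA* peaks thus paired many tags with a low score in each list that held them. Of the 50 peaks with most tags in replicate 4, 8 scored under 100, and the median score of the 50 was 599. In replicate 3 it was 15 of 50, with a median of 134. Of the 22 other peaks of replicate 3 with as many tags as *PHYA* or more, none had a lower score. In replicate 4 the 1 other such peak had a lower score, 59.04. Per 100 bp, *PHYA* held 66.8 tags in replicate 4 and ranked 78, against a list median of 29.8. In replicate 3 it held 44.2 and ranked 37, against 27.3. Another *PHYA* peak, of replicate 2 only, held 127 tags with a fold enrichment of 2.80 and lay 3738 bp upstream, in the 5′ UTR of AT1G09580 and beyond AT1G09575.

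**Figure D4:**
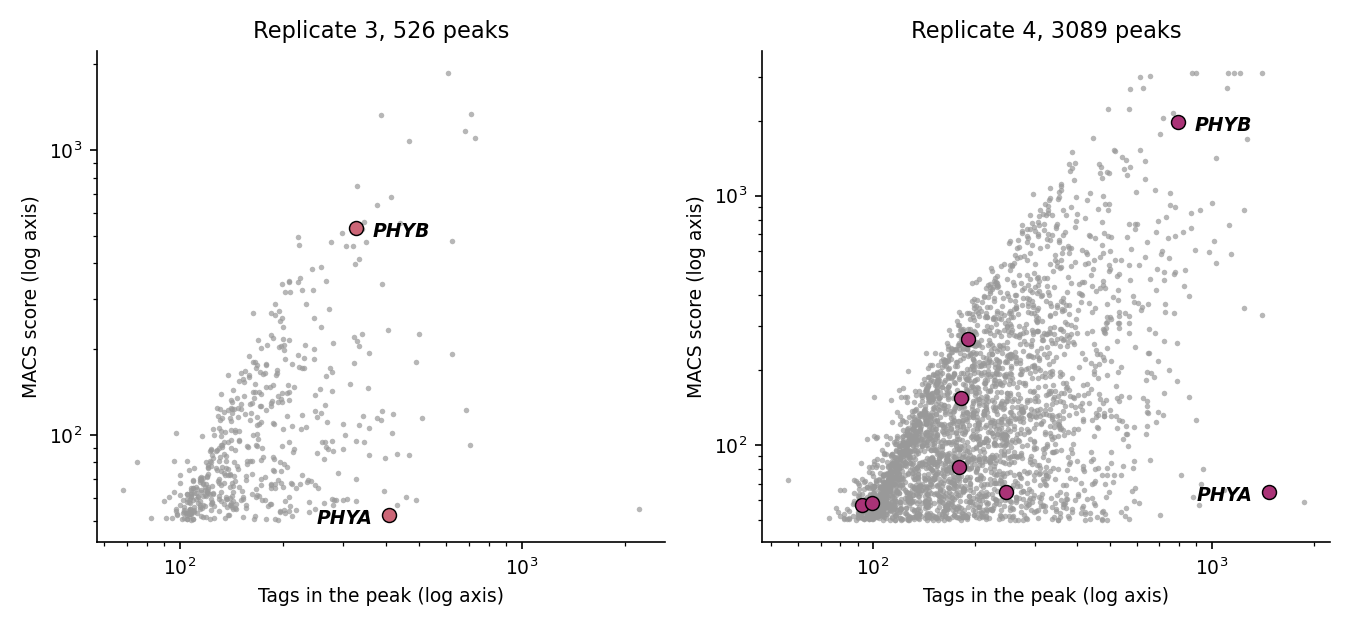
Tags in the peak against MACS score (log axes) for all peaks of replicates 3 and 4 in grey, with the peaks of photoreceptor genes in colour. *PHYB* (327 and 793 tags) lies near the upper edge in each list and *PHYA* (409 and 1476 tags) near the lower edge.

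*PHYE* (AT4G18130, minus strand of chromosome 4, 10042137 to 10046346), for a light-stable phytochrome, had a site 3270 bp upstream of its TSS with summits only 2 bp apart. The replicate 2 peak held 96 tags with a fold enrichment of 4.58 and a score of 92.33, and the replicate 4 peak 182 tags with 5.09 and 154.2. Their false discovery rates were 53.39% and 100%. The mean fold enrichment was 4.84 ± 0.361 (SD, n = 2 replicates), the smallest spread of the 4 photoreceptor sites. *SSP4b* (AT4G18140), annotated as a SCP1-like small phosphatase, lies between the site and *PHYE*. The site was 178 bp upstream of *SSP4b* and 595 bp upstream of AT4G18150 on the opposite strand, so it lies before 2 genes nearer than *PHYE*. The site is shown along the minus strand, with its G-box, 67 bp from the mean summit, in capitals.
PHYE site, chr4:10049516-10049716: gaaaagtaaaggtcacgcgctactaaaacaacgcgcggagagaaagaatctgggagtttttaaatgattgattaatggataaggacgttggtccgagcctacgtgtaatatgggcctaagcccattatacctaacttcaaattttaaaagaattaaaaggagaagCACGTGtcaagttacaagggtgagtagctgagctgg

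*CRY1* (AT4G08920, plus strand of chromosome 4, 5723651 to 5727268), for the blue-light receptor that acts over a wide range of intensities, had the most peaks of the 7 genes, 4 in all. Its upstream intergenic region of 7448 bp is longer than that of 98.8% of protein-coding genes, and all 4 summits lay in it. The reproducible site was 5755 bp upstream of the TSS. In replicate 2 the peak there held 71 tags with a fold enrichment of 4.23 and a score of 63.82. In replicate 4 it held 191 tags with 8.01 and 265.16. The false discovery rates were 71.23% in replicate 2 and 48.82% in replicate 4. The mean fold enrichment was 6.12 ± 2.67 (SD, n = 2 replicates). The summits were 20 bp apart, and the only E-box of the site was a PBE-box 19 bp from their mean, shown in capitals along the plus strand as the single PBE-box of the 7 genes with a site.
CRY1 site, chr4:5717796-5717996: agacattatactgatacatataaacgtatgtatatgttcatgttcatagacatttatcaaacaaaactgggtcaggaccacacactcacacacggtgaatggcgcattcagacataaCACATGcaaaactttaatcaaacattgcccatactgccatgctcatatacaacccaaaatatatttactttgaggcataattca
At the other 2 positions *CRY1* had peaks in replicate 4 only. The one 5083 bp upstream held 93 tags with a fold enrichment of 3.66, and its summit was 7 bp from the G-box shown above. The one 570 bp upstream held 99 tags with a fold enrichment of 5.87, and the nearest G-box or PBE-box was 4505 bp away.

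*CRY2* (AT1G04400, minus strand of chromosome 1, 1185512 to 1188696), for the blue-light receptor that is degraded in blue light, had 1 peak, in replicate 4. It held 247 tags with a fold enrichment of 3.78 and lay 9030 bp upstream, beyond 4 other genes and 230 bp from AT1G04430. *PHYC* (AT5G35840, plus strand of chromosome 5, 14007812 to 14011848), which encodes another light-stable phytochrome, had none, although its upstream intergenic region of 6395 bp was longer than that of 98.1% of genes. The nearest listed summit upstream of *PHYC* was 104834 bp away, and the nearest reproducible site 109939 bp, farther than for 82.6% of protein-coding genes, for which the median was 38848 bp. Just beyond the edges of the windows, the closest summits were at *CRY2*, 1500 bp farther upstream in replicate 2, at *PHYE*, 3931 bp farther upstream in replicate 2, and at *CRY2*, 4670 bp past the gene end in replicate 1.

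Over the 7 windows there were 12 G-boxes, and 3 of them, the pair at *PHYB* and the one 3203 bp upstream of *PHYE*, lay within 100 bp of a reproducible mean summit. Over the windows of all protein-coding genes the share was 5.36% of 13517 G-boxes. With a peak of any single replicate the number was 4, the added one being that of *CRY1*, against 11.6% of all 13517. Only *PHYB* and *PHYD* had G-boxes within 1 kb upstream of the TSS, 2 each. Those of *PHYB* each had a site. Those of *PHYD*, of which the one 762 bp upstream lies in a coding exon of AT4G16260, had neither a site nor a peak. Just outside this 1 kb, a further *PHYB* G-box in intergenic DNA 1228 bp upstream had neither as well, with the nearest summit 1081 bp away. Of 35 PBE-boxes in the windows, 1 had a site, against 0.843% of 54090. The bases beside the G-box differed: counted over the genome and on either strand, 7.41% of the 1605 G-boxes that read CCACGTGA, the form of the proximal *PHYB* and of both upstream *PHYD* G-boxes, had a site. This was 5.44% of 2554 for ACACGTGG, the form of the distal *PHYB* G-box, and 2.85% of 1227 for ACACGTGC, that of *PHYE*.

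The genes around the photoreceptors in light signaling were set beside them in 7 lists of 53 genes. Of these, 11 had a reproducible site in the window, where 10.7% of all genes had one. A peak of any replicate was present for 30 (41.7% of all genes), and a site with no gene between for 4 (3.77%). These 4 were *PHOT1*, AT2G16365, *PIL1* and *HFR1*, and the sites of the other genes named below had at least 1 annotated gene between. Pseudogenes and non-coding genes were counted as genes for this. Among other photoreceptors 1 of 7 had a reproducible site, *PHOT1* (AT3G45780), a blue-light receptor for phototropism. Its fold enrichments were 3.83 and 4.64 in replicates 2 and 4, at 1516 bp upstream. Of 5 genes for the synthesis of the phytochrome chromophore none had a site. Of 14 genes for phytochrome nuclear import and partners there were 3, *HMR* (AT2G34640), of phytochrome signaling and chloroplast development, AT2G16365 and AT4G34550. The *HMR* site lay 7183 bp upstream, in the 5′ UTR of AT2G34650, with fold enrichments of 2.79 and 3.69 in replicates 3 and 4. The site of AT2G16365, 29 bp upstream of its TSS, had 4.01 and 6.95 in replicates 3 and 4, the replicates that held *PHYB*. Of 4 cryptochrome partners there was 1, *CIB1* (AT4G34530), a bHLH factor that binds cryptochrome 2, whose site is the same one as that of AT4G34550.

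Of the 11 PIF and related bHLH factors 4 had sites: *PIF6* (AT3G62090), *PIL1* (AT2G46970), *HFR1* (AT1G02340) and *PAR1* (AT2G42870), the last of which encodes a small factor that holds PIFs off DNA. The *PIF6* sites lay 484 and 643 bp upstream and the nearer *PAR1* site 754 bp upstream, in a long non-coding RNA gene, AT2G09405. For each of these, 1 annotated gene was counted between site and TSS. The paper lists *PIF6* and *PAR1* as direct targets of PIF3, which by its own rule have a site without intervening genes. *PIL1*, a gene induced in shade, had the strongest site of all the listed genes, with 19.78, 23.38, 16.44 and 34.08 in replicates 1 to 4, a mean of 23.4 ± 7.65 (SD, n = 4). Like *PHYB*, it held 2 G-boxes less than 100 bp from the mean summit, as did 1 *PIF6* site and the *HMR* site. The paper describes 3 G-boxes under the *PIL1* peak. *HFR1*, for a factor that pairs with PIFs, was present in all 4 replicates with 4.62 to 7.08. The fold enrichment of *PHYB* was thus above that of *HFR1* and below that of *PIL1* in each of the 2 replicates that held all 3. *PIF6* had 10.2 and 7.23 in replicates 1 and 3 at 1 site, and 10.07 and 18.62 in replicates 2 and 4 at the other. The fold enrichment of *PHYB* was above that of *PIF6* in replicate 3 and below it in replicate 4. Of 9 repressors of the COP1, SPA and DET1 kind, *COP1* (AT2G32950), for the ubiquitin ligase that removes light-signaling factors in darkness, had a site 5991 bp upstream. Of 3 activators there was 1, *HYH* (AT3G17609), for a bZIP factor akin to HY5, 9527 bp upstream. *PIF3* (AT1G09530) itself, chosen here after its values were seen, had no reproducible site. Its peaks lay in coding exons, with a score of 1409.92 in replicate 4 at 1711 bp downstream of the TSS and 481.01 in replicate 3 at 1823 bp. P3M seedlings carry *PIF3* sequence in the transgene as well, and its part in these peaks was not tested.

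**Figure D5:**
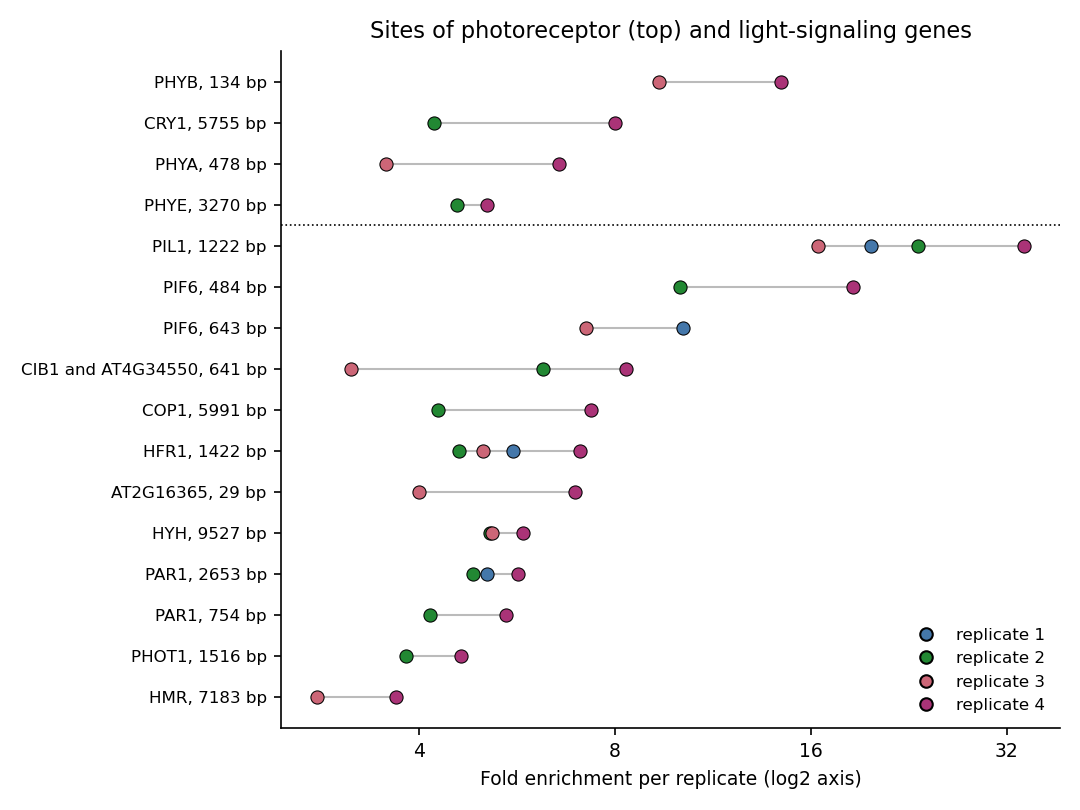
Fold enrichment in each replicate (log2 axis) of the reproducible sites of the photoreceptor genes, above the dotted line, and of the listed light-signaling genes, below it, with the distance from the TSS after each name (downstream for *PHYA*, upstream for the others). *PHYB* (9.35 and 14.43) lies above the other photoreceptor sites in the replicates it shares with them, and *PIL1* (16.44 to 34.08) lies above all others within each replicate.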

How the data were processed

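ChIP-seq libraries of P3M and WT seedlings, 4 each, were compared in pairs of the same replicate number by the authors, who aligned 36-nt single-end reads to TAIR9 and kept those with a unique place in the nuclear genome (CASAVA 1.7.0, Bowtie 0.12.7 and MACS 1.4.0rc2 per the submitters' processing notes). Peaks were called at a p-value of 1e-05 in each replicate. The count of tags per peak, the fold enrichment (a ratio to the local background), the false discovery rate in percent and the score (-10 times log10 of the p-value) were used as deposited by the authors, without rescaling. Peak coordinates, the remaining columns, were likewise deposited by the authors. Library depths were not used here. The deposited values cover peaks only, so no test across libraries was made and replicates are given side by side; their number limits the precision.

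Summits less than 100 bp apart were joined, sites had summits of at least 2 replicates, and motifs were sought less than 100 bp from the mean summit. RefSeq's TAIR10.1 supplied genes and sequence. G-boxes within 50 bp of the 1064 mean summits numbered 595, against 14 between 450 and 500 bp, which shows that the coordinates of the peak lists fit this sequence. Named are the 7 genes, listed genes with a site, genes nearest to the peaks, and the 5 sites most like *PHYB*. The genes and lists were chosen with earlier results of these data known. The joining of summits and the finding of sites in gene windows were checked on simulated peaks. Python 3.11.15 was used with numpy, pandas and Biopython.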

Additional observations from a re-analysis of the deposited data

How the results depend on the processing

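Of 111 values computed under other settings, 27 moved beyond the limits set and 84 did not. The count of 84 does not measure robustness, since some values could not move under some settings. The joining distance and the number of replicates required cannot change the 14 peaks in the windows or the 6 genes with a peak. The *PHYB* values were also kept where at least 3 replicates were required, although no *PHYB* site remained there. No paired analysis was possible because each list already compares a P3M library with the WT library of the same number and holds no value per library. Joining summits at 50 or 200 bp, or by overlapping regions, left *PHYA*, *PHYB*, *PHYE* and *CRY1* as the genes with a site. Requiring at least 3 replicates left 0 genes, 0 G-boxes with a site, 6 listed genes and 4.66% of all genes. With a p of 1e-10 or lower, only *PHYB* kept a site (1 gene), 3 genes kept 4 peaks, and the share of all genes was 4.3%. A window from 5 kb upstream dropped *CRY1* (background 6.24%). From 3 kb upstream, 2 genes (*PHYA* and *PHYB*), 7 peaks, 7 listed genes and 4.51% of all genes remained, and with windows that stop at the nearest gene, 9 peaks, 4 listed genes and 3.77% of all genes.

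Leaving out each replicate in turn gave 0 to 4 photoreceptor genes with a site, 6 to 14 peaks, 0 to 3 G-boxes with a site, 7 to 11 listed genes and 5.39 to 9.51% of all genes. Without replicate 1 the 4 genes stayed, without replicate 2 *PHYA* and *PHYB* did (2 genes, background 6.71%), without replicate 3 *PHYE* and *CRY1* did (2 genes), and without replicate 4 none did. *PHYB* had a summit in 1 or 2 replicates in these settings. Every photoreceptor site rests on 2 replicates, replicate 4 and 1 other.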
